A study of Mus musculus with 60 samples.

Results

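The subject here is the set of nuclear-encoded structural subunits of respiratory complex I, measured by RNA-seq in 3 brain regions of wild-type and PON2-deficient mice. The rule that picks the members uses gene symbols and no measured value: 35 nuclear NADH dehydrogenase subunit genes were listed, and all 35 were rows of the deposited table of 20423 genes. The list was chosen, however, with earlier results of these data known. Of the 35, all passed the filter on low counts in every fit. Paraoxonase 2 (Pon2) is a mitochondrial and endoplasmic reticulum enzyme known for limiting oxidative stress. Male and female mice with normal Pon2 were compared with homozygous PON2-deficient littermates, bred from heterozygous pairs on a C57BL/6J background, that had completed behavioural testing and were 3 to 4 months old. Both genotypes therefore shared the behavioural testing. RNA came from pulverized, dissected cerebral cortex, striatum and cerebellum, and each combination of region, sex and genotype held 5 libraries, 60 in all.

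Complex I is the largest enzyme of the mitochondrial respiratory chain. Its matrix arm takes electrons from NADH through a flavin and a chain of iron-sulfur clusters, and its membrane arm pumps protons. The mitochondrial genome supplies the membrane-embedded pumping core, and the nucleus supplies the matrix-arm core, the accessory subunits that surround both arms, and the acyl carrier protein. Neurons depend heavily on this chain, and defects in the nuclear genes are a known cause of Leigh syndrome, in which basal ganglia, brainstem and cerebellum are affected. The members were therefore described in 5 places of the enzyme: 6 matrix-arm core subunits, 9 matrix-arm accessory subunits, 9 proximal membrane-arm subunits, 10 distal membrane-arm subunits and the acyl carrier protein Ndufab1.

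RefSeq promoters, from 250 bases before to 50 bases after the annotated start on GRCm38.p6, were given for 32 of the 35 members. They are shown because a shared stretch of letters lay at a shared place. The letters AAGATGGC, the core of the YY1 motif, were searched on both strands and occurred in 7 of the 32 members (21.9%), against 3.19% of the 27025 genes with a promoter sequence. In all 7 members they lay on the coding strand, 22 to 38 bases after the annotated start, and the ATG inside them was an annotated start codon in GENCODE M21 (GRCm38). Of the 7 windows, 6 lay inside 1 annotated exon, and that of Ndufa3 ran past the end of its exon. The windows hold the end of the 5′ untranslated region and the opening codons. Each line gives the bases 5′ to 3′ on the gene's strand, with the searched letters in capitals.
Ndufs7 at chr10:80249462-80249491, plus strand: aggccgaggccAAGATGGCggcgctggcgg
Ndufs4 at chr13:114388045-114388070, minus strand: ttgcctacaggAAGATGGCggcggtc
Ndufs6 at chr13:73328433-73328460, minus strand: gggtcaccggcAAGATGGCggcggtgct
Ndufa9 at chr6:126849097-126849126, minus strand: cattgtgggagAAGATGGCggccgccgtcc
Ndufa3 at chr7:3617384-3617413, plus strand: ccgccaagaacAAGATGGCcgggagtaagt
Ndufc1 at chr3:51408915-51408944, minus strand: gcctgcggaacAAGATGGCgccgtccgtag
Ndufb8 at chr19:44555393-44555415, minus strand: cggagaaggtgAAGATGGCtgcc
These 7 genes came from 4 of the 5 places in the enzyme. A match describes letters and does not show that a factor binds. A further 4 motifs were searched in the same way: GCGCANGC (the NRF1 core) was in 9 members (28.1%, against 11.2% of all genes), GGGCGGG (SP1) in 12 (37.5%, against 27.9%), CCGGAAGT (an ETS site, as GABPA reads) in 1 (3.13%, against 4.31%) and TCAAGGTCA (estrogen-related receptors) in 0 (against 0.466%). The members' promoters had a median GC content of 59% (range 45.3% to 70.7%), and all genes had 52.8%. Promoters rich in GC and CG pairs hold more of the GC-rich letters, so these shares are not independent of base composition. Ndufa8 and Ndufb10, whose levels differed between regions below, were picked from the 9 members with NRF1 letters after their values were seen. Whether the letters go with regional level was not tested. Their NRF1 letters near the start are written here as they read on the gene's strand.
Ndufa8 at chr2:36049328-36049357, minus strand: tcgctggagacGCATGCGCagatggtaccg
Ndufb10 at chr17:24724407-24724436, minus strand: gtcacctttctGCGCAGGCgtagaggtccc

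Library totals ran from 26091911 to 28125224 estimated counts, so depth was nearly even. Pon2 was lower in every PON2-deficient library than in every wild-type library of its region: in cortex 2.34 to 5.62 CPM (counts scaled to the TMM-adjusted library total) against 50.2 to 58.9, in striatum 2.54 to 6.91 against 44.7 to 56.8, and in cerebellum 0.46 to 1.26 against 39.2 to 51.4. Region labels were checked on summed markers. Striatal projection neuron markers summed to 4459 to 8788 CPM in striatum and to at most 1529 CPM elsewhere, and cerebellar granule neuron markers to 4124 to 4777 CPM in cerebellum and to at most 1669 CPM elsewhere. Cortical excitatory neuron markers summed to 1656 to 2191 CPM in cortex and to at most 964 CPM elsewhere. Male PON2-deficient striatum library 5 stood apart. The main striatal results are given with and without it, and other striatal values include it unless stated. The deposited weights of library 5 averaged 0.0527 of the median striatal library. It had the fewest genes with a count (19944, against 20141 to 20218 in the other striatal libraries). Its length slope, the slope across non-member genes of a gene's log2 deviation from the regional mean on log2 transcript length, was -0.234, against -0.066 to 0.036 in the others. In a library with a negative slope, short transcripts are high relative to long ones.

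Among themselves the subunits differed several-fold in level in every region. Levels between genes are compared per length, as CPM divided by kilobases of the shortest principal transcript. In cortex the range ran from Ndufs4 at 30.5 ± 2.6 CPM per kb (SD, n = 20) to Ndufb9 at 227.1 ± 9.9, a 7.44-fold span. Ndufs4 is an accessory subunit at the NADH end whose loss in mice gives a Leigh-like disease, and Ndufb9 is a small LYR-motif subunit at the far end of the membrane arm. Distal membrane-arm subunits held the 2 highest cortical levels per kb, Ndufb9 and Ndufb8 (204.5 ± 10.4 CPM per kb), and also Ndufb4 at 46.7 ± 3.1. Ndufa3, a single-pass proximal subunit, followed with 185 ± 14 CPM per kb.

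Within the matrix-arm core, which carries the redox centres, Ndufs1 was lowest in all 3 regions, and the highest member depended on the settings. Ndufs7, which holds the last iron-sulfur cluster before ubiquinone, was the highest with all libraries, at 96.0 ± 4.2 CPM per kb in cortex, 110 ± 42 in striatum (100.5 ± 6.9 without library 5, n = 19) and 123 ± 11 in cerebellum. In striatum without library 5 Ndufs3 was above it, at 102.4 CPM per kb. With the longest principal transcript Ndufs7 fell below Ndufs3 in every region, at 74.0 against 89.5 CPM per kb in cortex and 94.6 against 95.9 in cerebellum. Ndufs1, the largest core subunit, was the lowest at 44.2 ± 2.4, 51.0 ± 8.8 and 54.9 ± 2.6 CPM per kb. The core thus spanned 2.17-fold in cortex, 2.15-fold in striatum and 2.24-fold in cerebellum, less than the distal membrane arm (4.87-, 4.80- and 5.05-fold). In the accessory matrix arm the lowest member was Ndufs4 in each region; the highest was Ndufa2 in cortex and striatum (121 and 132 CPM per kb) and Ndufa6, another LYR-motif subunit, in cerebellum (129 CPM per kb). The lowest proximal member was Ndufa10 in each region (61.7, 61.1 and 60.01 CPM per kb). The plot of levels per transcript length shows this spread beside the smaller differences between regions.

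**Figure D1:**
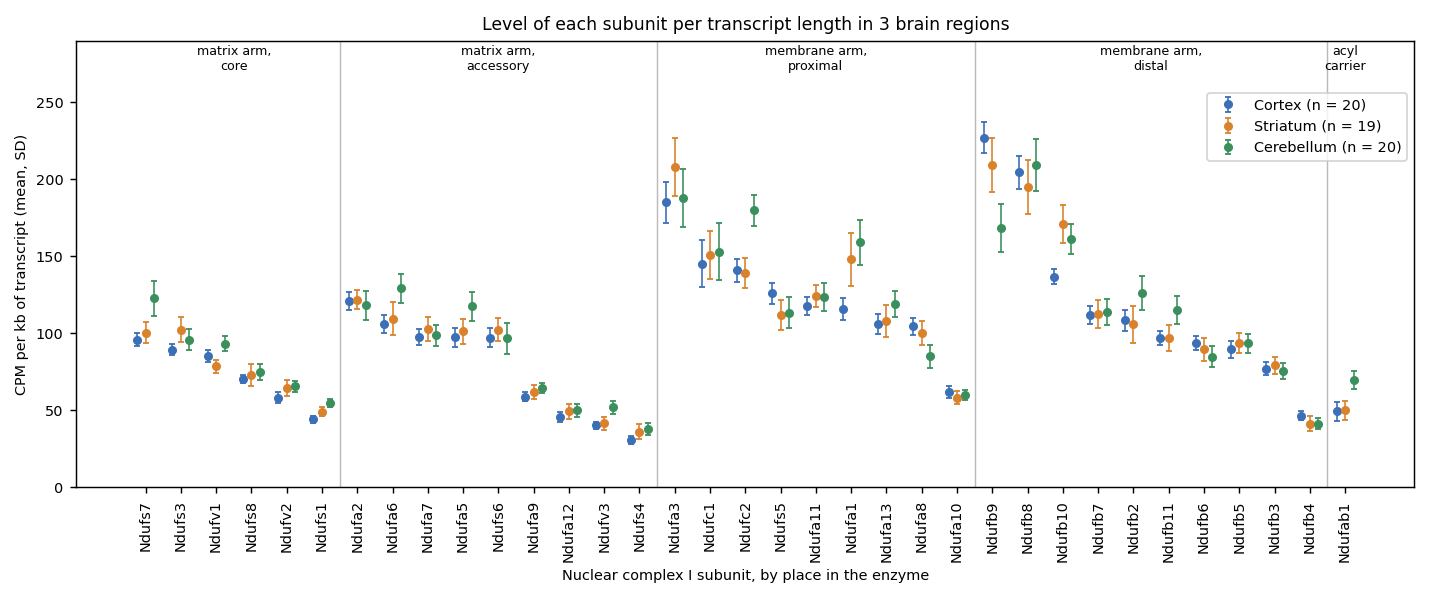
Mean level of each of the 35 subunits, in CPM per kb of transcript, in cortex (n = 20), striatum (n = 19, without male PON2-deficient library 5) and cerebellum (n = 20), with SD as bars and subunits grouped by place in the enzyme. Ndufs4 sits near 30 to 38 and Ndufb9, Ndufb8 and Ndufa3 between 168 and 227, and most regional means of a gene lie close together beside that span.

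Between libraries the levels were tight. The median coefficient of variation of a member was 5.52% over the 20 cortical libraries and 7.93% over the 20 cerebellar ones. In striatum it was 23.3%, and 8.10% without library 5. Ndufb10, a distal accessory subunit, varied least in cortex (3.61%), and Ndufab1, the mitochondrial acyl carrier protein, varied most (12.7%).

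Regional differences were small in fold and often beyond the spread between libraries. They were tested in 1 edgeR quasi-likelihood fit over all 60 libraries, with Benjamini-Hochberg adjustment over 20387 genes and a threshold of 0.05. Between cerebellum and cortex, 17 of 35 members were higher in cerebellum and 4 lower. Over all genes 40.1% were called higher and 39.5% lower, beside 48.6% and 11.4% of members. Without male PON2-deficient striatum library 5 in the fit, 21 members were higher and 5 lower, or 60% and 14.3%, with 41.2% and 40.2% of all genes so called. The members' median difference was 0.10 on the log2 scale, against 0.00 over all genes. The sources do not say whether same-numbered libraries of different regions came from 1 mouse, and the fit took all 60 as independent. Across regions, 36 of 60 correlated best with their own number, where 1 in 5 gives 12, so pairing is possible. With a replicate block within sex and genotype, 17 members were higher and 5 lower in cerebellum than in cortex. The block gave 12 and 1 for striatum minus cortex, and 9 and 8 for cerebellum minus striatum. In bulk tissue, fewer cells of a type and less RNA per cell cannot be told apart, and the regions differ in their cell types.

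Ndufab1 showed the largest rise in cerebellum. It lies at chr7:122085403-122101886 (GRCm38, minus strand) and carries the fatty-acyl chains on which LYR subunits dock. Its lowest, median and highest library values were 43.8, 71.6 and 83.05 CPM in cortex, 54.4, 71.4 and 92.0 in striatum and 84.4, 98.8 and 114.0 in cerebellum. Every cerebellar library was above every cortical one, and the striatal range reached into the cerebellar range. The log2 difference from cortex was 0.50 (SE 0.05, adjusted p = 1.64e-12, edgeR), and from striatum 0.48 (SE 0.05, adjusted p = 6.08e-12). Gm44986 overlaps Ndufab1 on the opposite strand, and Ndufab1-ps is annotated as a copy by name, so reads could be shared.

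Ndufa1, a small proximal subunit encoded at chrX:37187588-37191163 and needed for assembly of the membrane arm, was lowest in cortex. Cortical libraries ran from 42.0 to 52.8 CPM (median 48.8), striatal ones from 53.2 to 85.7 (median 60.9) and cerebellar ones from 55.9 to 81.7 (median 64.7). No cortical library overlapped the other regions. Its log2 difference was 0.45 in cerebellum (SE 0.05, adjusted p = 2.29e-13) and 0.38 in striatum (SE 0.05, adjusted p = 2.53e-10) against cortex.

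Ndufv3, an accessory subunit beside the flavin site, had cortical values from 57.8 to 70.3 CPM and cerebellar values from 68.6 to 102.5. These ranges overlapped at their ends, and the log2 difference was 0.36 (SE 0.06, adjusted p = 5.49e-08). Against striatum it was 0.25 (SE 0.06, adjusted p = 5.19e-05).

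Falls in cerebellum were led by 2 membrane-arm subunits. Ndufb9 (chr15:58933756-58939488) had 149.4 to 169.1 CPM in cortex, 128.0 to 292.7 in striatum and 102.7 to 142.1 in cerebellum. No cerebellar library reached the cortical range, and the log2 difference from cortex was -0.43 (SE 0.05, adjusted p = 3.67e-10). Against striatum the log2 difference was -0.38 (SE 0.05, adjusted p = 1.04e-08). An annotated gene, Gm49356, overlaps Ndufb9 on the same strand, so reads could be split between them.

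Ndufa8, a twin-CHCH subunit on the intermembrane-space side (chr2:36036326-36049406), had 81.1 to 98.4 CPM in cortex and 65.5 to 91.5 in cerebellum, with overlap. Its log2 difference from cortex was -0.30 (SE 0.06, adjusted p = 1.35e-05) and from striatum -0.32 (SE 0.06, adjusted p = 4.60e-06). Ndufs5, another twin-CHCH subunit, had a log2 difference from cortex of -0.15 (SE 0.07, adjusted p = 0.028); leaving out every library of replicate number 1, 2 or 3 ended its call (adjusted p = 0.116, 0.069 and 0.113).

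By place in the enzyme, cerebellum against cortex gave 4 of 6 core matrix-arm subunits higher and 0 lower, and 6 of 9 accessory matrix-arm subunits higher and 0 lower. Ndufs7 and Ndufs1 were among the core members called, with log2 differences of 0.35 and 0.31, and Ndufs4 and Ndufa6 among the accessory ones, with 0.31 and 0.28. Of the 9 proximal membrane-arm subunits 3 were higher and 2 lower, and of the 10 distal ones 3 were higher and 2 lower. The background shares of 40.1% and 39.5% apply to each of these counts. Without library 5, the core gave 6 of 6 higher, the accessory matrix arm 6 of 9, the proximal membrane arm 4 higher and 2 lower, and the distal one 4 higher and 3 lower. The difference between arms was not tested.

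Between striatum and cortex, 15 members were higher in striatum and 1 lower, with 28.8% of all genes called higher and 28.2% lower. This comparison shares its cortical libraries with the one above. The median log2 difference was 0.12 over members and 0.01 over all genes. Without library 5, 14 were higher and 5 lower (30.1% and 30% of all genes), and the median fell to 0.05, so this direction partly rests on 1 library. Ndufb10 (chr17:24722060-24724478) held in either case: cortical libraries ran from 94.8 to 107.7 CPM and striatal ones from 112.1 to 217.5, or to 141.9 without library 5. Its log2 difference was 0.37 (SE 0.04, adjusted p = 1.09e-10), and 0.32 (SE 0.03, adjusted p = 7.0e-16) without library 5. Ndufs4 was 0.32 higher (SE 0.07, adjusted p = 4.58e-05) and 0.25 higher without library 5.

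Ndufv1, the flavin-binding subunit that oxidizes NADH, was the 1 member called lower in striatum, with a log2 difference of -0.09 (SE 0.03, adjusted p = 0.0071). Its libraries ran from 118.9 to 183.4 CPM in striatum, 140.5 at most without library 5, and from 129.4 to 153.0 in cortex, with overlap. Leaving out replicate number 1 in every group ended that call (adjusted p = 0.108). Without library 5, Ndufv1, Ndufs5, Ndufb4, Ndufb9 and Ndufa10 were lower, with log2 differences from -0.18 (Ndufb4 and Ndufs5) to -0.08 (Ndufa10).

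Between cerebellum and striatum, 9 members were higher in cerebellum and 10 lower, with 39.7% and 40.2% of all genes so called. Without library 5 the count was 14 higher and 8 lower (40.5% and 40.4% of all genes), and the members' median log2 difference changed sign, from -0.04 to 0.03. Ndufc2, a proximal subunit of the complex's hinge region, rose most after Ndufab1: 110.9 to 136.7 CPM in cerebellum against 85.5 to 192.0 in striatum, or to 107.7 without library 5. Its log2 difference was 0.30 (SE 0.05, adjusted p = 9.35e-07), and 0.37 without library 5, where no libraries overlapped. Ndufa3 was lower in cerebellum by the log2 difference -0.25 (SE 0.07, adjusted p = 0.0014), and -0.14 without library 5.

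**Figure D2:**
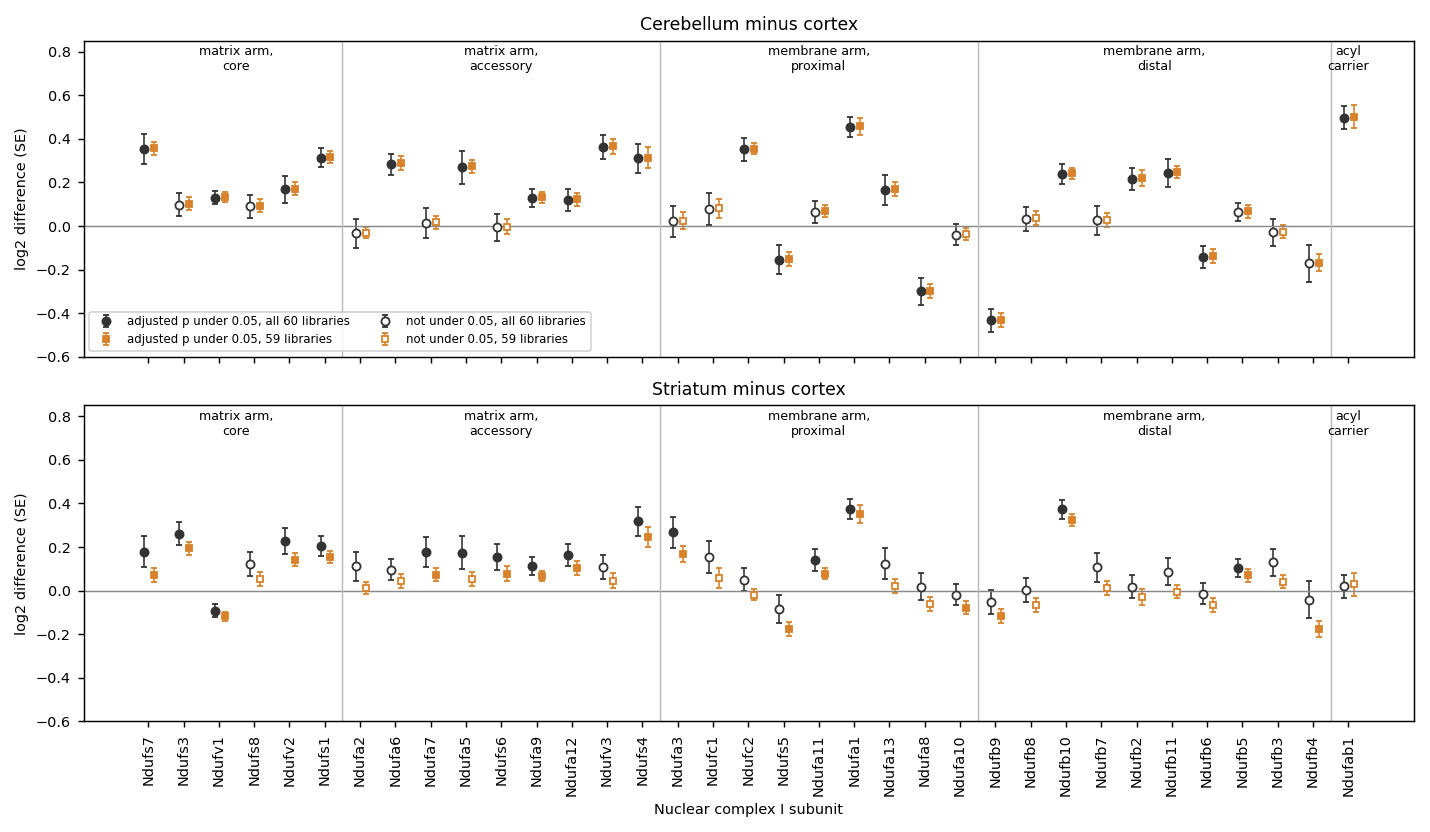
Log2 difference of each of the 35 subunits between regions, with SE, from edgeR over all 60 libraries (circles) and over 59 libraries without male PON2-deficient striatum library 5 (squares); filled symbols have an adjusted p under 0.05. Cerebellum minus cortex has a median of 0.10 in both, whereas striatum minus cortex is shifted down by leaving out the library, from a median of 0.12 to 0.05.

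Ranked by mean CPM over a region's libraries, 14 members were highest in cerebellum, 16 in striatum and 5 in cortex. Without library 5 the numbers were 20, 9 and 6, and cortex was the lowest region for 21 of 35 members.

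The 7 mitochondrially encoded subunits of the same enzyme were placed beside these. In cerebellum all 7 were lower than in cortex (log2 differences from -0.57 to -0.31, median -0.43) and lower than in striatum (from -0.64 to -0.50). The largest difference from cortex was that of mt-Nd6 (-0.57, SE 0.04). Nuclear and mitochondrial subunits thus had medians of opposite sign between cerebellum and cortex, 0.10 and -0.43. In striatum 5 of the 7 were higher than in cortex.

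Other genes of the respiratory chain are given beside the same background of 40.1% higher and 39.5% lower in cerebellum than in cortex. Of 17 measured assembly factors, 5 were higher and 5 lower in cerebellum than in cortex, among them Acad9 (log2 difference 0.50, SE 0.05), a flavoprotein of the membrane-arm assembly complex. Subunits of complex III were higher for 7 of 9 and lower for 0. ATP synthase subunits were higher for 11 of 15 and lower for 3, with the catalytic subunit Atp5b at 0.59 (SE 0.03), whereas complex IV gave 2 of 11 higher and 4 lower. Of 14 regulators of respiratory genes 12 were higher and 1 lower, led by Esrrg (1.71, SE 0.06), an orphan nuclear receptor of oxidative metabolism. The 37 cytosolic ribosomal proteins went the other way, with 30 lower and 1 higher.

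Genotype moved 0 of 35 members past the threshold in edgeR. In the 9 comparisons of PON2-deficient with wild-type libraries (3 regions; both sexes together, females and males), edgeR called 0 of 35 members at an adjusted p under 0.05. These fits used the 20 libraries of a region, and replicates are separate libraries of a group, so p-values measure the spread between these libraries. With DESeq2, 1 member was called in cortex over both sexes, 3 in male cortex, 1 in female cerebellum and 0 in the other 6 comparisons. DESeq2 called 1.22%, 2.37% and 0.0428% of all genes in those 3 comparisons, more than edgeR. The shares of all genes that edgeR called were 0.0316% in cortex, 0.0105% in striatum and 0.0321% in cerebellum over both sexes. The share was 0.00527%, 0.00527% and 0.00534% in females and 0.148%, 0.00527% and 0.016% in males, in the same order of regions.

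In cortex 31 of 35 members had a lower estimate in PON2-deficient libraries, with a median log2 difference of -0.04, against -0.00 over all genes, of which 50.2% were lower. With the length slope as a covariate this median was 0.01. The slope had a median of -0.0223 in male wild-type cortex (-0.048 to -0.002) and 0.0111 in male PON2-deficient cortex (-0.004 to 0.022). In male cortex slope and genotype thus went largely together, and their parts cannot be told apart. Unadjusted p was under 0.05 for 5 members, or about the 11.4% of all genes. The log2 differences ran from -0.15 to 0.03, and every 95% interval lay between -0.25 and 0.09. All 35 intervals thus lay within a 1.2-fold change. Cytosolic ribosomal proteins had lower estimates for 37 of 37, with a median of -0.06.

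Ndufv3 had the smallest p in cortex. In males its values were 69.1, 70.3, 67.7, 63.6 and 68.7 CPM in wild-type libraries and 59.2, 62.8, 58.5, 62.7 and 57.8 CPM in PON2-deficient ones. The male groups did not overlap. In females the wild-type values (67.6, 68.3, 61.9, 62.0 and 63.9) and the PON2-deficient values (59.5, 63.5, 65.1, 63.2 and 63.6) overlapped. The log2 difference was -0.18 in males (SE 0.04, adjusted p = 0.073) and -0.11 over both sexes (SE 0.03, adjusted p = 0.136). DESeq2 gave adjusted p-values of 0.0066 and 0.032 for the same differences.

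Ndufc1, a proximal subunit with principal transcripts from 315 to 1249 bases long, was second over both sexes, at -0.14 (SE 0.05, adjusted p = 0.266, edgeR). In male cortex it had 54.1, 49.7, 47.7, 55.6 and 45.1 CPM in wild-type libraries against 38.8, 47.9, 41.8, 37.5 and 39.5, with overlap. In female cortex the smallest p belonged to Ndufc2, with a log2 difference of -0.10 (SE 0.04, adjusted p = 0.737) and 17 of 35 members higher. In male cortex 32 of 35 members had a lower estimate, with a median of -0.07, and 9 had an unadjusted p under 0.05, where 14.0% of all genes did. With the length slope as a covariate the male median was 0.04, and slope and genotype cannot be told apart in these libraries.

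Male and female genotype effects in cortex differed by a median log2 value of -0.07 (male minus female), and edgeR called 0 of 35 members and 0.0% of all genes. Ndufa13, also known as GRIM-19, a proximal subunit, had the smallest p. Female libraries had 131.6, 137.9, 122.3, 122.3 and 136.4 CPM in wild type and 137.3, 135.7, 140.8, 128.9 and 138.1 in PON2-deficient mice. Male libraries had 144.4, 132.4, 150.4, 136.7 and 139.9 in wild type and 124.4, 131.6, 123.0, 127.4 and 119.1 in PON2-deficient mice. The male groups did not overlap, the female ones did, and the difference between the sexes was -0.24 on the log2 scale (SE 0.06, adjusted p = 0.304 with edgeR and 0.036 with DESeq2, which called 0.575% of all genes). Ndufa13 overlaps Yjefn3 on the same strand.

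In striatum the direction turned on 1 library. With all 20 libraries, 33 of 35 members had a higher estimate in PON2-deficient striatum, with a median log2 difference of 0.08. Without male PON2-deficient library 5, 30 of 35 had a lower one, with a median of -0.07. Over all genes the medians were 0.01 and -0.00, with 46.1% and 50.7% lower. edgeR called 0 members either way, and 0.0157% of genes without the library. Unadjusted p was under 0.05 for 0 members with it and 9 without it, where 8.68% of all genes were.

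Ndufs7 shows what that library did. Male PON2-deficient striatum had 76.1, 78.2, 76.1, 78.2 and 215.5 CPM, male wild-type striatum 70.5, 69.7, 72.1, 68.9 and 90.6. The fifth value in each group lay far above the other 4. Its log2 difference over both sexes was 0.21 (SE 0.15, adjusted p = 0.995) with library 5 and -0.01 without it. Ndufa2, a thioredoxin-fold accessory subunit, had 72.2, 70.8, 67.3, 70.9 and 185.9 CPM in male PON2-deficient striatum, and the smallest p of the members (log2 difference 0.22, SE 0.14, adjusted p = 0.995). Without library 5 its log2 difference was 0.02 (SE 0.04).

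Without library 5, the smallest p-values in striatum were those of Ndufa5 and Ndufa6, both accessory matrix-arm subunits. Female libraries of Ndufa6 had 75.8, 72.3, 67.7, 67.5 and 69.2 CPM in wild type and 59.3, 60.5, 65.4, 57.7 and 60.4 CPM in PON2-deficient mice, with no overlap. Its male libraries overlapped, at 56.3 to 79.3 and 57.0 to 65.6 CPM. The log2 difference over both sexes was -0.15 (SE 0.05, adjusted p = 0.447), and that of Ndufa5 was -0.12 (SE 0.04, adjusted p = 0.447).

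By sex, 33 of 35 members had a lower estimate in PON2-deficient females (median -0.11) and 35 of 35 a higher one in PON2-deficient males (median 0.29). Ndufa6 had the smallest p in females (-0.21, SE 0.14, adjusted p = 0.9999), and Ndufa11 in males (0.35, SE 0.15, adjusted p = 0.792). Without library 5, Ndufa11 in males was at 0.08 (SE 0.06), and the smallest p-values belonged to other members. They were Ndufb8 in females (-0.21, SE 0.07, adjusted p = 0.491, edgeR) and Ndufb4 in males (-0.19, SE 0.09, adjusted p = 0.902, edgeR). Without library 5 the male median was -0.03, with 14 of 35 higher and 0.00523% of genes called. The difference of the effect between sexes (male minus female) had a median of 0.40 with that library and 0.09 without it. Ndufa12 had the smallest p in both (0.46, SE 0.21, adjusted p = 0.880, and 0.22, SE 0.10, adjusted p = 0.9999), and 0.0% of all genes were called. Summed oligodendrocyte markers ran from 6924 to 7318 CPM in male wild-type striatum and from 7882 to 9563 CPM in male PON2-deficient striatum. In females they ran from 8286 to 10243 and from 7528 to 9321 CPM. All 6 of these markers were measured and 0 were at 0 in all libraries, and their part in the result was not tested.

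**Figure D3:**
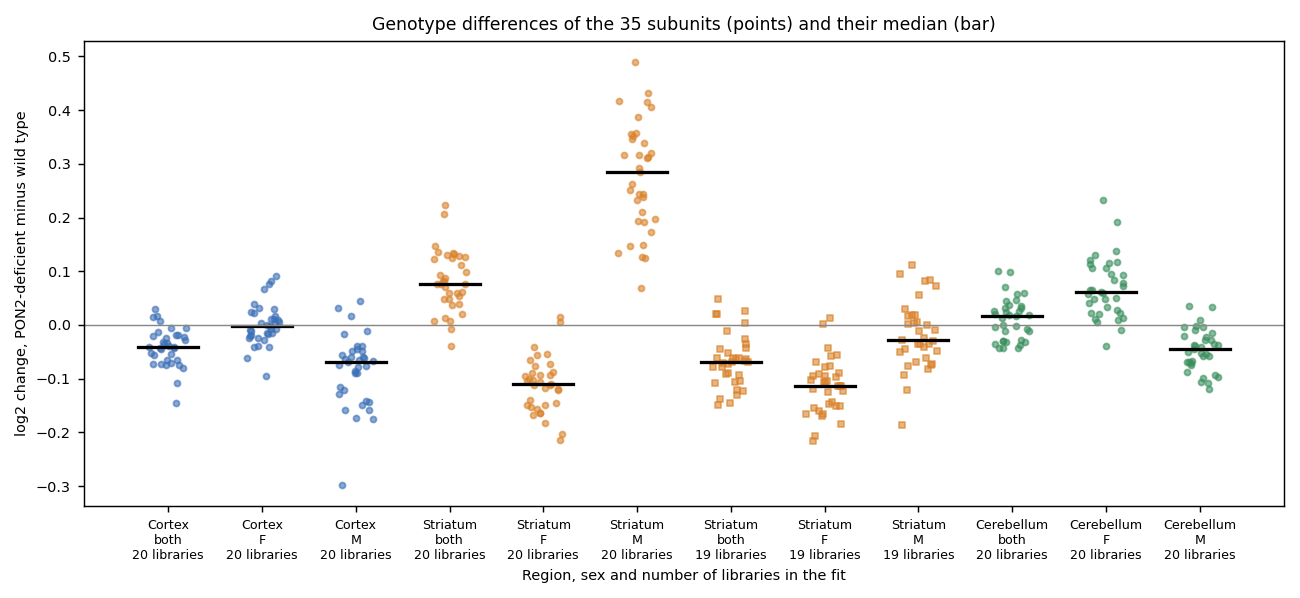
Log2 change of the 35 subunits between PON2-deficient and wild-type libraries (1 point each) with their median (bar), for both sexes, females (F) and males (M) in each region; striatum is shown with 20 libraries (circles) and 19 libraries (squares). The median for male striatum is 0.29 with all libraries and -0.03 without library 5.

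In cerebellum the members were split, with 19 of 35 higher in PON2-deficient libraries and a median log2 difference of 0.02 (0.00 over all genes). All 35 intervals again lay within a 1.2-fold change, between -0.16 and 0.25. By sex, 33 of 35 had a higher estimate in PON2-deficient females (median 0.06) and 32 of 35 a lower one in PON2-deficient males (median -0.04). The male minus female difference had a median of -0.11, with 0 members and 0.0% of all genes called.

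Ndufa12, an accessory subunit that is a late addition to the matrix arm, had the smallest p in cerebellum, in females and in the difference between sexes. Its female values were 53.5, 50.1, 52.3, 47.5 and 50.4 CPM in wild-type libraries and 59.7, 56.2, 64.2, 60.2 and 58.2 CPM in PON2-deficient ones. These groups did not overlap. Male values were 52.5, 55.5, 54.1, 64.2 and 56.4 against 58.5, 53.0, 57.0, 53.8 and 52.6, with overlap. The female log2 difference was 0.23 (SE 0.05, adjusted p = 0.632 with edgeR and 0.043 with DESeq2), and over both sexes it was 0.10 (SE 0.04, adjusted p = 0.317). The sexes differed by -0.27 (SE 0.075, adjusted p = 0.967).

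The other members named by rule in cerebellum were Ndufc1 over both sexes (0.10, SE 0.07, adjusted p = 0.648) and Ndufa5 in males (-0.12, SE 0.07, adjusted p = 0.561). Cerebellar Ndufc1 was highest in male wild-type library 4, at 63.2 CPM against 37.7 to 50.5 in the other 4 libraries of its group. That library had all 35 members above the regional mean, and without it the male median was 0.01 in place of -0.04. All 8 choroid plexus markers were measured. Summed, they ran from 556 to 2189 CPM in wild-type and from 32.9 to 2636 CPM in PON2-deficient cerebellum, and their part in these results was not tested.

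Mitochondrially encoded subunits were estimated lower in PON2-deficient cerebellum for 7 of 7 (median log2 difference -0.12), where 49.6% of all genes were lower. By library their median log2 deviation ran from -0.30 to 0.12 in PON2-deficient and from -0.12 to 0.19 in wild-type cerebellum, with overlap. The smallest adjusted p was 0.057, for mt-Nd6 (-0.30, SE 0.05, edgeR). Among the 17 assembly factors, the subunits of complexes II and IV and of ATP synthase, the regulators and the ribosomal proteins, edgeR called 0 genes in any of the 9 genotype comparisons. Among complex III subunits it called Uqcr11 in male cortex (adjusted p = 0.017).

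The genotype effect was also compared between regions, in the fit over all 60 libraries. edgeR called 0 members for striatum minus cortex (0.0% of all genes), 0 for cerebellum minus cortex (0.0147%) and 0 for cerebellum minus striatum (0.00981%). The medians over members were 0.13, 0.04 and -0.06, and without library 5 they were -0.04, 0.05 and 0.09.

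Sex itself left the members close together. In male against female libraries of both genotypes edgeR called 0 members in cortex (0.0896% of genes), striatum (0.105%) and cerebellum (0.118%). The X-linked pair Ndufa1 and Ndufb11 was of interest because a gene that escapes X inactivation can be higher in females. Ndufa1 had male minus female log2 differences of 0.01 in cortex (95% interval -0.08 to 0.10), -0.08 in striatum (-0.25 to 0.09) and 0.03 in cerebellum (-0.09 to 0.14). Ndufb11, a distal subunit, had -0.01 (-0.07 to 0.05), 0.09 (-0.20 to 0.38) and 0.05 (-0.04 to 0.14). In cortex and cerebellum these intervals leave room for less than a 1.2-fold difference. In striatum the difference of Ndufb11 changed sign without library 5, to -0.10.

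Across libraries the members moved together with the length slope. The relation is partly built in, since a negative slope means that short transcripts are high. The members' shortest principal transcripts ran from 315 bases (Ndufc1) to 2590 bases (Ndufs1). The genes that set the slope include other respiratory and ribosomal genes. The permutations pooled both sexes and genotypes of a region. The p-values below thus do not show a trait particular to complex I. A library's member deviation is the median over the 35 members of log2 CPM minus the regional mean, taken without library 5. Against the length slope, Pearson's r was -0.66 in cortex (n = 20, permutation p = 0.0011, adjusted over 4 relations 0.0011; Spearman's rho -0.65, permutation p = 0.0024, adjusted 0.0032). In cerebellum r was -0.78 (n = 20, permutation p = 0.00090, adjusted 0.0011; rho -0.63, permutation p = 0.0034, adjusted 0.0034). In striatum r was -0.98 (n = 20) with library 5 and -0.87 (n = 19) without it, both with a permutation p of 2.0e-05 (adjusted 4.0e-05), the smallest that 100000 resamples can give. Spearman's rho was -0.85 (permutation p = 2.0e-05, adjusted 8.0e-05) and -0.83 (permutation p = 6.0e-05, adjusted 0.00012). Leaving out the 2 libraries farthest from the median slope gave r of -0.41 in cortex, -0.86 in striatum, -0.84 in striatum without library 5 and -0.50 in cerebellum. The libraries so left out were male wild-type 1 and 3 in cortex, and male wild-type 4 and female wild-type 2 in cerebellum, and there r fell by the most.

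In male PON2-deficient striatum library 5 the members' median deviation was 1.03 on the log2 scale, with 34 of 35 above the regional mean. The other nuclear respiratory genes and the ribosomal proteins stood high in it too, with medians of 1.03 for complex IV, 0.94 for ATP synthase and 1.02 for ribosomal proteins. The mitochondrially encoded subunits were at 0.02 and the regulators at -0.12. Its choroid plexus markers had a median deviation of 1.48, inside the range of the other striatal libraries (-1.53 to 3.44), and its striatal projection neuron markers 0.21. Of 11 marker lists, 2 had a summed level outside that of the other striatal libraries: astrocyte markers (1630 CPM, against 2332 to 2853) and Purkinje neuron markers (603 CPM, against 885 to 1428). The median deviation of endothelial and mural markers (-0.31) was below the others (-0.21 to 0.22), and that of red blood cell genes (0.90) above them (-0.90 to 0.86). Their part in the result was not tested. Male wild-type striatum library 5 (0.21, 34 of 35 members above) and male wild-type cerebellum library 4 (0.25, 35 of 35) were the next highest. With the length slope as a covariate the median genotype difference was 0.01 in cortex in place of -0.04, 0.02 in striatum in place of 0.08, and 0.04 in cerebellum in place of 0.02, and edgeR again called 0 members.

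**Figure D4:**
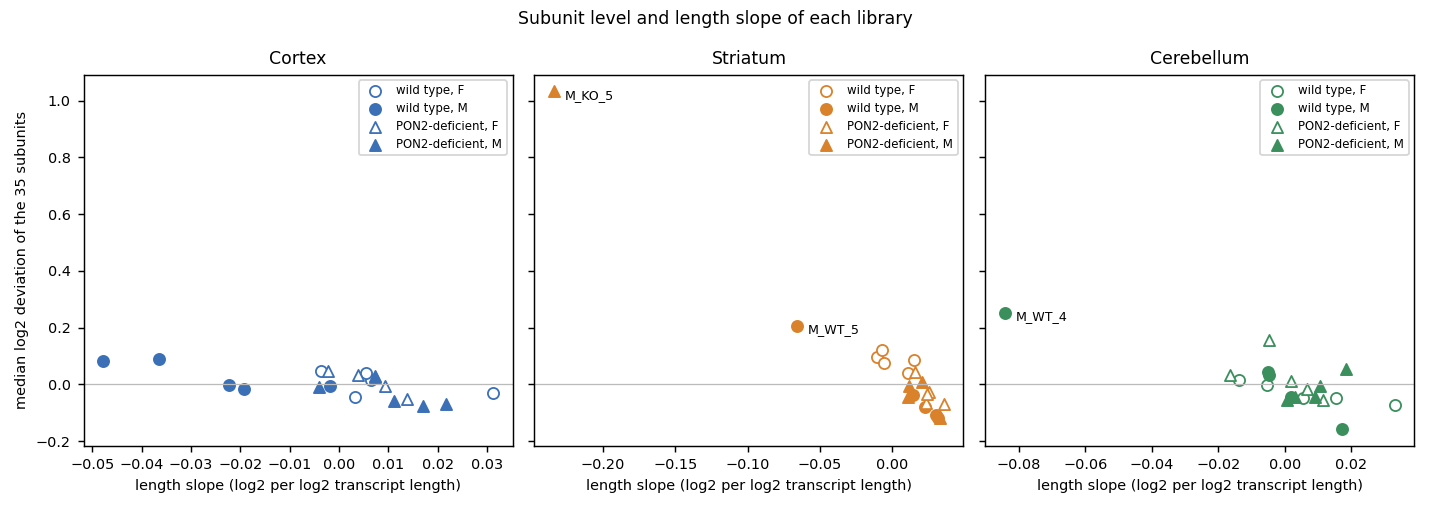
Median log2 deviation of the 35 subunits from the regional mean in each library (vertical axis) against the library's length slope (horizontal axis, log2 per log2 transcript length), by region, sex (open female, filled male) and genotype (circles wild type, triangles PON2-deficient). Male PON2-deficient striatum library 5 lies at 1.03 and a slope of -0.234, and libraries with a lower slope have higher member levels in each region.

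The 6 core matrix-arm subunits show how these libraries enter each group. Ndufv2, a partner of Ndufv1 at the NADH site, had 99.8 to 108.4 CPM in the other 4 male PON2-deficient striatal libraries and 253.9 in library 5. Ndufs3, at the base of the arm, had 99.3 to 109.4 and 218.6 CPM, Ndufs8 52.7 to 56.6 and 113.2 CPM, Ndufs1 118.2 to 126.9 and 223.3 CPM, and Ndufv1 126.2 to 138.8 and 183.4 CPM. Ndufv1 was thus raised least and Ndufs7 most. By region and sex, 2 of 36 pairs of wild-type and PON2-deficient ranges did not overlap. The share over all genes was not computed, so this count is not read as a result about the subunits. The 2 pairs were Ndufv2 in female striatum (114.2 to 119.5 against 97.3 to 113.8 CPM) and Ndufs3 in female cerebellum (92.5 to 98.3 against 98.4 to 109.0 CPM).

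**Figure D5:**
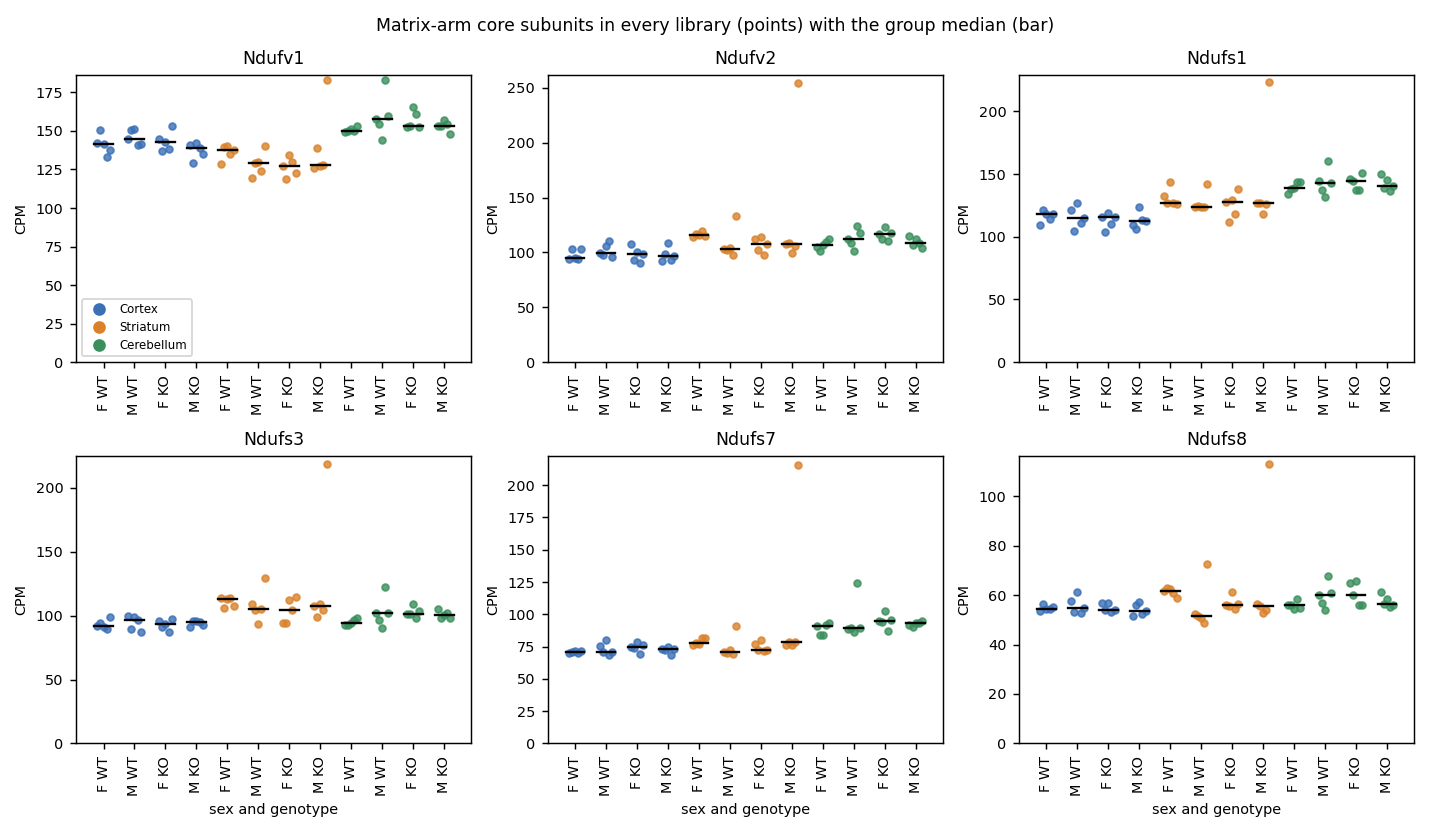
Level in CPM of the 6 core matrix-arm subunits in every library (points) by sex and genotype in cortex, striatum and cerebellum, with the median of each group of 5 as a bar. Wild-type and PON2-deficient medians lie close together, and male PON2-deficient striatum library 5 is the highest striatal point in each panel, 215.5 CPM for Ndufs7.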

How the data were processed

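RNA-seq libraries of 12 groups (3 regions, both sexes, wild type and PON2-deficient) with 5 replicates each were analysed as deposited. The authors' counts are estimated counts per gene, and Salmon, edgeR and limma are named per the submitters' processing notes, without versions. Build, annotation and strandedness of the authors' counting were not stated in the labels. The deposited log2 CPM values equal the voom transformation of the counts up to 1 constant per library, and the deposited voom weights are a score of precision per gene and library. Both were used as alternatives and to describe libraries.

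Estimated counts were rounded, filtered with filterByExpr, scaled by TMM and tested with edgeR 4.0.16 (R 4.3.3) quasi-likelihood tests, 2-sided, with Benjamini-Hochberg adjustment over all genes and a threshold of 0.05. Genotype and sex were tested in 1 fit per region (20 libraries, 4 groups) and region levels in 1 fit over 60 libraries and 12 groups. Depth was even, and the SE and 95% intervals state the precision. Levels per kb used GENCODE M21 transcript lengths (GRCm38), matched by gene ID for 99.9% of genes. The length slope used non-member genes of at least 1 CPM. Alternatives were other scalings, DESeq2 1.42.0, limma 3.58.1 with voom quality weights, the deposited values, no filter, a replicate block, covariates, and leaving out each library. The scripts were tested on simulated data.

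The members and the gene lists were chosen with earlier results of these data known. Full statistics were given by rule: in each comparison the 1 or 2 members with the smallest p or every called member, Ndufa1 and Ndufb11 for sex, and between regions the 3 called members with the largest rise and fall. The Ndufa8 and Ndufb10 windows, the additional members named as lower in striatum without library 5, and cerebellar Ndufc1 by library were chosen after their values were seen. Of the members, 3 overlap another gene of the table on the same strand and 12 on the opposite strand, and such reads may be shared. Copies named after Ndufs6, Ndufa11, Ndufb4 and Ndufab1 are also annotated. Promoters of Ndufs1, Ndufa2 and Ndufb9 were not used here.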

Additional observations from a re-analysis of the deposited data

Results flagged for a closer look

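In each of the 12 groups of 5, the summed level of the 35 subunits and the 6 core matrix-arm subunits were examined for a library far from the other 4 (84 sets of 5 values). Chance flags about 1 in 20 such sets, and 14 values in 4 libraries were found. The 7 measures of a group come from the same libraries, and the sum includes the 6 core subunits. The sets are thus not independent, and 1 library can be flagged several times.

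Male PON2-deficient striatum library 5 held 7 of the 14. Its subunits summed to 6106.55 CPM, against 2706.08 to 2960.98 CPM in the other 4 libraries. Ndufv1 was at 183.36 CPM in it, Ndufv2 at 253.89, Ndufs1 at 223.34, Ndufs3 at 218.59, Ndufs7 at 215.48 and Ndufs8 at 113.22 CPM.

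Male wild-type striatum library 5 held 5 of the 14. Its subunits summed to 3391.78 CPM, against 2699.35 to 2861.04 CPM in the other 4 libraries. Ndufv2 was at 133.21 CPM in it, Ndufs1 at 141.83, Ndufs7 at 90.6 and Ndufs8 at 72.55 CPM.

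Ndufs8 was at 61.39 CPM in female PON2-deficient striatum library 3, against 54.34 to 56.32 CPM in the other 4. Ndufs7 was at 124.0 CPM in male wild-type cerebellum library 4, against 86.66 to 89.69 CPM in the other 4.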

How the results depend on the processing

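Limits: striatal values turn on male PON2-deficient library 5. Levels per kb depend on the transcript used: with the longest principal transcript 7 members had another length, Ndufb2 fell by the largest factor (9.61) to become the lowest member (11.3 CPM per kb in cortex), Ndufs7 fell below Ndufs3, and the rank correlation with the values given was 0.778 in cortex, 0.806 in striatum and 0.774 in cerebellum. Low-level members were not a limit, since all passed the filter. Below, medians are log2 differences over the 35 members; the cause of each change was not tested, and leaving out libraries gives a range.

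Members called, where the count differed from 0, were 1 with DESeq2 in cortex over both sexes, 3 with upper-quartile scaling and 3 with DESeq2 in male cortex, 1 with DESeq2 for the male minus female effect in cortex (Ndufa13) and 1 with DESeq2 in female cerebellum (Ndufa12). In male cortex leaving out a library gave 0 to 2: Ndufv3 without male wild-type library 4 (adjusted p = 0.044, edgeR), and Ndufa3 and Ndufc1 without male PON2-deficient library 2. Upper-quartile scaling called Ndufv3, Ndufa13 and Ndufc1.

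With the length slope as a covariate, the median genotype difference was 0.0098 in cortex, 0.0362 in male cortex, 0.0291 for male minus female in cortex, 0.0579 for male minus female in striatum, 0.0188 in male cerebellum and -0.0104 for male minus female in cerebellum. For male against female it was -0.0414 in cortex, -0.0555 in striatum and -0.0027 in cerebellum. Between regions the genotype effect became -0.0202 (striatum minus cortex) and 0.036 (cerebellum minus striatum). With the slope and library 5 left out (chosen, like the longest transcript, after seeing the data), striatum gave -0.0026 over both sexes, 0.0321 in males, 0.066 for male minus female effect and -0.061 for sex.

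With limma voom quality weights and with the deposited values and weights, respectively, the median was -0.0384 and -0.0404 in striatum, 0.0255 and 0.0267 in male striatum, 0.1361 and 0.1401 for the male minus female effect there, -0.0664 and -0.0666 for sex in striatum, and -0.0016 and -0.0063 for sex in cortex. For regions they gave -0.0026 and -0.0027 (genotype effect, striatum minus cortex), 0.038 and 0.0387 (cerebellum minus striatum) and 0.0658 and 0.0659 (its genotype effect). Sex in cortex was -0.0047 with choroid plexus as covariate and -0.0045 in 1 fit over all libraries, and upper-quartile scaling gave -0.0001 in cerebellum over both sexes.

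Leaving out 1 library or replicate number at a time gave medians of -0.0204 to 0.0116 in female cortex, -0.009 to 0.0084 for sex in cortex, -0.0681 to 0.1155 in striatum, -0.0283 to 0.3703 in male striatum, 0.0948 to 0.487 for the male minus female effect in striatum and -0.0577 to 0.1357 for sex in striatum. In cerebellum it gave -0.0069 to 0.0361 over both sexes, -0.0822 to 0.0071 in males and -0.0091 to 0.0346 for sex. Between regions it gave -0.0354 to 0.1661 (genotype effect, striatum minus cortex), -0.0689 to 0.0436 (cerebellum minus striatum) and -0.1168 to 0.088 (its genotype effect).

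Single genes that changed sign were the sex differences of Ndufa1 in cortex (-0.003 with deposited values; -0.0153 to 0.0254 leaving out a library) and in cerebellum (-0.0069 to 0.0598), of Ndufb11 in cortex (0.0013 with upper-quartile scaling; -0.0235 to 0.003) and in striatum (-0.1173 with quality weights, -0.1193 deposited, -0.0946 with the slope, -0.102 with the slope and library 5 out; -0.0984 to 0.1395), and the genotype difference of Ndufs7 in striatum (-0.0116 to 0.2548).

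Same-numbered libraries were not taken as paired, because no set had every correlation over a cutoff of 0.1. Across genotypes 9 of 30 were over it, and across regions 27 of 60. This cutoff cannot decide whether equal numbers across regions are 1 mouse. Correlating best with its own number was seen in 9 of 30 and 36 of 60, where 1 in 5 gives 6 and 12 (a hint from the data, not the design). With the replicate block, the median for sex was -0.0085 in cortex and -0.0556 in striatum, Ndufa1 was -0.034 and Ndufb11 0.0422 for sex in cortex, and Ndufb11 -0.0641 in striatum; members called in striatum minus cortex were 12 higher and 1 lower, in cerebellum minus cortex 17 and 5, in cerebellum minus striatum 9 and 8. Quality weights gave 10 higher and 8 lower for striatum minus cortex, and 14 and 7 for cerebellum minus striatum; without replicate 5 these were 10 and 7, and 15 and 5. With the slope, striatum minus cortex gave 24 and 4.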
